A study of Mus musculus with 2 samples.

Results

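The let-7 family of the newborn mouse kidney is described here through 10 microRNA genes: Mirlet7a-1, Mirlet7a-2, Mirlet7b, Mirlet7c-1, Mirlet7c-2, Mirlet7d, Mirlet7f-2, Mirlet7g, Mirlet7i and Mir98. They were chosen by gene name, as the Mirlet7 genes and Mir98 that have a row of their own among the 1973 microRNA genes of the tables. Mir7j and Mir7k, whose mature strands are named let-7j and let-7k, also have a row and were not among those chosen. Small RNA was sequenced from whole kidneys of 2 B6NCrl pups at 0 days after birth, 2 kidneys from each pup. Both pups carry the number of the same pregnancy in the labels, which state that sex was not recorded and name no treatment or genotype other than the strain. The labels give both pups the same donor entry. The pups form 1 group of 2 biological replicates, so no conditions can be compared. All values concern the genes within this tissue and the spread between both pups.

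Let-7 is among the first microRNA families found and is conserved across animals, where it acts in the timing of development. Its genes are transcribed as long precursors, cut to hairpins, and cut again to a mature strand that pairs with target messages through its seed, bases 2 to 8. In embryonic cells the proteins Lin28a and Lin28b bind let-7 precursors and hold back their maturation, and mature let-7 in turn represses Lin28, Hmga2 and Igf2bp messages. In the developing kidney, Lin28 and let-7 are known for their part in how long nephron progenitors persist. The tables count microRNA genes alone, so these messages were not analysed here.

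The mature strands are shown because their small differences decide which gene a read can be assigned to. The sequences come from RefSeq on build GRCm38.p6, run 5′ to 3′, and have the seed in capitals. All 12 family genes sought there, Mirlet7e and Mirlet7f-1 included, had a hairpin. The 5′ strand of Mirlet7a-2 had no entry and was found in its hairpin as an exact match to let-7a-5p. The 9 distinct mature strands of the 5′ arm were:
let-7a-5p: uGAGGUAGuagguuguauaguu
let-7b-5p: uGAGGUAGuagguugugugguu
let-7c-5p: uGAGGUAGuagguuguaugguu
let-7d-5p: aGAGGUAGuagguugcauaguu
let-7e-5p: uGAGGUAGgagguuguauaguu
let-7f-5p: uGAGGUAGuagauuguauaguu
let-7g-5p: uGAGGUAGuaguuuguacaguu
let-7i-5p: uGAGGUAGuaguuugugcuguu
miR-98-5p: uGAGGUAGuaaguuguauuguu

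All 9 strands were 22 bases long and carried 1 seed, and 14 of the 22 positions were identical in all of them. With positions counted from 1 at the 5′ end and let-7a as the reference, let-7c differed by A19G, let-7e by U9G and let-7f by G12A. Let-7b differed by A17G and A19G, and let-7d by U1A and U16C. Let-7g differed by G12U and U18C, and miR-98 by G11A and A19U. Let-7i was the farthest from let-7a, with G12U, A17G, U18C and A19U. Let-7a was thus 1 base from each of let-7c, let-7e and let-7f, and let-7b was 1 base from let-7c. The nearest family strand of let-7d, let-7g, let-7i and miR-98 differed by 2 bases. Among 1738 mature entries of the same source, 13 held the seed GAGGUAG. Of these, 2 belong to genes outside the 12 family genes, Mir1961 and Mir7k (let-7k). Mir1961 had 0 counts in both pups and Mir7k 0 and 1. Mir7j, whose strand is named let-7j, has GAGGUAU in place of that seed and reached 28.6 CPM in pup 1 and 34.1 in pup 2.

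Counts on the strand of the gene came to 5832192 in pup 1 and 3846704 in pup 2, and levels are counts scaled to a total of 1000000 (CPM). Reads that matched several places took 30.3% and 31.0% of all reads and are listed apart from the gene counts. Markers of kidney and epithelium were fixed as 15 genes of the miR-10, miR-196, miR-200, miR-192, miR-194 and miR-204 kinds. All had counts, and together they held 28.5% and 27.5%. Mir10a, at 157719 and 151155 CPM, and Mir10b, at 69950 and 67721 CPM, supplied most of this. Mir192 had 524 and 602 CPM, and Mir204 had 358 and 399 CPM. Mir215, at 11.1 and 9.10 CPM, and Mir194-1, at 4.29 and 3.12 CPM, were far lower. The sum thus mostly reflects Mir10a and Mir10b, and whether these are particular to kidney or epithelium was not tested. The endothelial Mir126a held 7.20% and 8.72%. The leukocyte genes with a row, 3 of 4, held 0.0611% and 0.0561%, the liver gene Mir122 0.00569% and 0.00442%, the 3 erythroid genes 0.0241% and 0.00988%, and the 10 genes of pluripotent cells 0.00141% and 0.00135%. The 5 of 6 muscle genes with a row held 0.000514% and 0.000442%, with Mir133a-1, Mir133b, Mir133a-2 and Mir1a-1 at 0. The 5 of 6 neuronal genes with a row held 0.000154% and 0.000208%, with Mir124a-1, Mir124a-2 and Mir124a-3 at 0. The Mir124a, Mir1a and Mir133a genes are known to have copies with the same mature strand, and reads that match several places are not in these counts. Their levels at 0 thus do not show that such cells were missing. Whether Mir133b has such a copy was not checked.

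Together the 10 genes had 683901 counts in pup 1 and 459494 in pup 2. The family thus held 11.7% of pup 1's counts, with a Wilson interval at 95% of 11.70 to 11.75. For pup 2 the share was 11.9%, with an interval of 11.91 to 11.98. As shares of all reads these are 6.83% and 6.86%. The intervals do not overlap, but they cover counting error only, and without molecular identifiers several reads can come from 1 molecule. Between genes, the number of reads that 1 molecule yields was not measured, so ratios between genes are ratios of reads. In whole kidneys, more cells of a type and more RNA per cell cannot be told apart.

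Mirlet7g led the family. It had 308348 counts, 52870 CPM, in pup 1 and 194821 counts, 50646 CPM, in pup 2, which is the 5th highest level of all microRNA genes in both pups. Its hairpin (ENSMUSG00000065440.1) is intronic to Wdr82, which encodes a subunit of histone methyltransferase complexes, and occupies chromosome 9 from 106178840 to 106178927 on the plus strand (mm10). Its level of 51758 ± 1572 CPM (SD, n = 2) was next below Mir335, at 54954 ± 1919, and next above Mir322, at 43791 ± 436.

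Mirlet7i came second, with 36625 CPM in pup 1 and 41089 CPM in pup 2, from 213607 and 158059 counts. Mirlet7i (ENSMUSG00000065406.2) lies on the minus strand of chromosome 10 (122985640 to 122985724), where some transcript of D630033A02Rik, annotated as a transcribed pseudogene, has an exon. Its mean of 38857 ± 3156 CPM stood between Mir322 and Mir143, at 36917 ± 2966, a microRNA known from smooth muscle. Both pups placed Mirlet7g above Mirlet7i, 1.44-fold in pup 1 and 1.23-fold in pup 2. Their means lay farther apart than either SD. Their sum was 90616 ± 1584 CPM.

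Mirlet7d came next in the family, with 12416 CPM in pup 1 and 12343 in pup 2. Its hairpin (ENSMUSG00000065453.1, minus strand of chromosome 13, 48536012 to 48536114) falls in an exon of some transcript of the long noncoding RNA 6720427I07Rik. Mirlet7d, at 12379 ± 51.5 CPM, was next below Mir21a, at 12810 ± 1139, and next above Mir22, at 11665 ± 168. The SD of Mir21a exceeded its distance to Mirlet7d. Mirlet7g, Mirlet7i and Mirlet7d supplied 87.0% ± 0.157 of the counts of the 10 genes, with 43.7% ± 1.90, 32.8% ± 2.24 and 10.5% ± 0.180. These counts leave out reads that match several places.

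A middle group held 3 genes. Mir98 had 5715 CPM in pup 1 and 5712 in pup 2, Mirlet7b 5060 and 5064, and Mirlet7f-2 3972 and 4057. Mir98 stood between Mir93, at 6996 ± 612 CPM, and Mir30d, at 5510 ± 294, and overlapped with Mir30d between the pups. Mir98 (ENSMUSG00000065536.2, 151913214 to 151913321) and Mirlet7f-2 (ENSMUSG00000065602.1, 151912346 to 151912428) lie on the plus strand of chromosome X, each intronic to Huwe1, the gene of a ubiquitin ligase. The hairpin of Mirlet7b (ENSMUSG00000065564.1, plus strand of chromosome 15, 85707319 to 85707403) falls in an exon of some transcript of Lncppara, a noncoding gene. In each pup these genes kept the order Mir98, Mirlet7b, Mirlet7f-2, with gaps larger than the SD of either neighbour.

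The other 4 genes had far lower counts. The 5′ strand of each has an identical copy in another gene, and the counts leave out reads that match several places. Mirlet7a-1 had 1074 counts in pup 1 and 619 in pup 2 (184 and 161 CPM), and Mirlet7c-2 894 and 515 (153 and 134 CPM). Mirlet7a-2 had 843 and 528 counts (145 and 137 CPM), and Mirlet7c-1 721 and 414 (124 and 108 CPM). They ranged from 108 to 184 CPM and together gave 0.516% and 0.452% of the family's counts. Mirlet7a-1 was 23.3-fold below Mirlet7f-2 by their means, and Mirlet7g exceeded Mirlet7c-1 428-fold in pup 1 and 471-fold in pup 2. Of the 9 pairs of neighbours in the order of levels, 8 were apart by more than their SD without overlap between the pups. The exception was Mirlet7c-2 and Mirlet7a-2, whose order turned over between the pups.

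**Figure D1:**
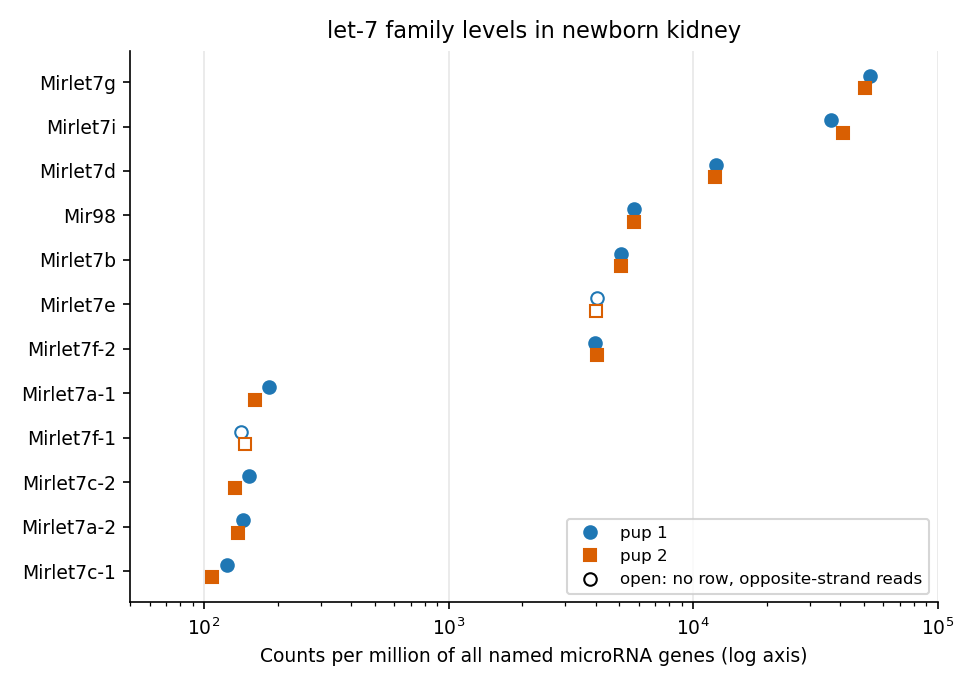
Levels of the let-7 family genes in CPM of all named microRNA genes on a log axis, 1 circle for pup 1 and 1 square for pup 2 per gene. Open symbols are genes with no row of their own, whose level comes from reads opposite to a listed gene. 6 genes with a row lie above 1000 CPM and 4 lie between 108 and 184 CPM. Reads that match several places are left out.

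Mirlet7e and Mirlet7f-1 are not listed by name in the tables used here, but a listed gene overlaps each on the other strand. The plus-strand hairpin of Mirlet7e on chromosome 17 (17830352 to 17830444), intronic to Spaca6, is opposite to Gm25927. Gm25927 had 0 counts on its own strand in both pups, and 23650 and 15431 reads on the opposite one. Scaled to the same totals, the reads at Mirlet7e came to 4055 and 4011 CPM, 4033 ± 30.8, which is within the SDs of Mirlet7f-2 at 4015 ± 60.6. The minus-strand hairpin of Mirlet7f-1 on chromosome 13 (48537829 to 48537917) is opposite to Gm24111, which also had 0 counts on its own strand. The reads opposite to Gm24111 came to 826 and 566, or 142 and 147 CPM. With these reads the family share was 12.2% ± 0.152.

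Genes whose mature strand had an identical copy mostly had lower levels, although Mirlet7f-2 and Mirlet7e overlapped between the pups. Copies were sought in the hairpins of 2202 annotated microRNA genes, since no genome sequence was at hand. The 6 genes whose 5′ strand was in no other hairpin, Mirlet7g, Mirlet7i, Mirlet7d, Mir98, Mirlet7b and Mirlet7e, had means from 4033 to 51758 CPM, with a median of 9046. The 6 genes whose strand had 1 identical copy had means from 116 to 4015 CPM, with a median of 144, and Mirlet7f-2 alone of them exceeded 1000. A read of an identical copy can match several places and is then listed apart, so levels of Mirlet7a-1, Mirlet7a-2, Mirlet7c-1, Mirlet7c-2, Mirlet7f-1 and Mirlet7f-2 leave out such reads. How many of the 3038663 and 2075718 multimapping reads belong to let-7a, let-7c or let-7f was not measured, so these counts do not rank the mature strands.

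The copies are printed with the 8 bases that follow the mature strand in capitals, because only a read that reaches a differing base tells the copies apart from the 5′ end on:
Mirlet7a-1: ugagguaguagguuguauaguuUUAGGGUC
Mirlet7a-2: ugagguaguagguuguauaguuUAGAGUUA
Mirlet7c-1: ugagguaguagguuguaugguuUAGAGUUA
Mirlet7c-2: ugagguaguagguuguaugguuUUGGGCUC
Mirlet7f-1: ugagguaguagauuguauaguuGUGGGGUA
Mirlet7f-2: ugagguaguagauuguauaguuUUAGGGUC

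The let-7a copies and the let-7c copies agreed for 1 base past the mature strand, so a read from its 5′ end has to be 24 bases long to tell them apart. The let-7f copies differed at the next base, and a read of 23 bases tells them apart. Mirlet7f-2 had 28.0 times the reads of Mirlet7f-1 in pup 1 and 27.6 times in pup 2. Of the 3′ arms, the strand of Mirlet7a-1 was identical to that of Mirlet7c-2, and no other 3′ strand of the 12 genes had a copy. Accordingly 7 windows of 22 bases were shared with another hairpin in Mirlet7a-1 and in Mirlet7c-2, 2 in Mirlet7a-2 and in Mirlet7c-1, 1 in Mirlet7f-1 and in Mirlet7f-2, and 0 in the other 6 genes. Mirlet7a-1 and Mirlet7c-2, whose arms both have a copy, had means of 173 ± 16.4 and 144 ± 13.7 CPM. Mirlet7a-2 and Mirlet7c-1, which share 1 arm with another gene, had 141 ± 5.15 and 116 ± 11.3 CPM, and Mirlet7c-2 and Mirlet7a-2 were not apart beyond their spread. The arms are not separated in the counts.

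**Figure D2:**
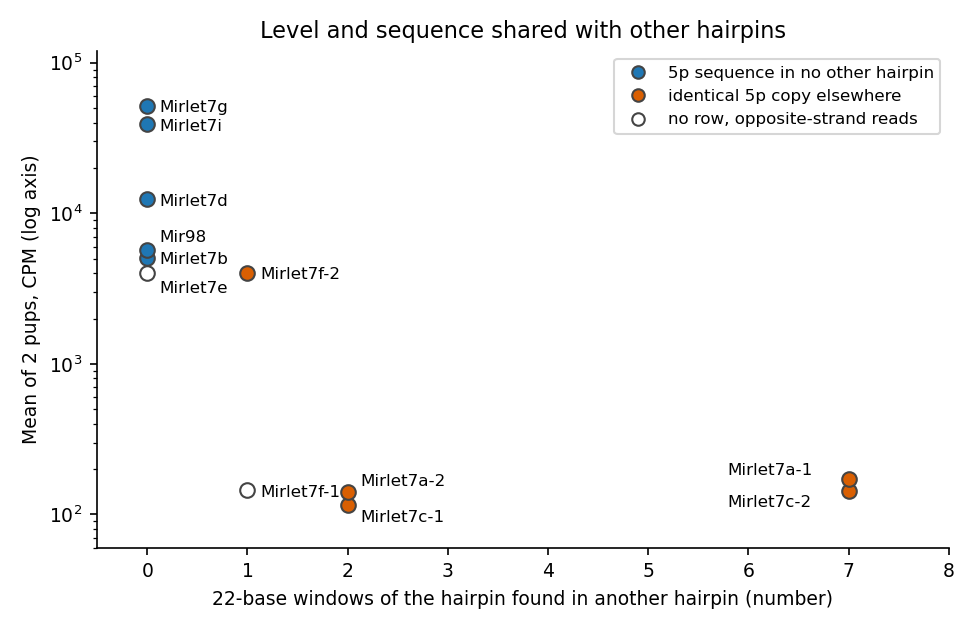
Mean level over the 2 pups in CPM (log axis) against the number of 22-base windows of a hairpin that occur in another hairpin, 1 point per let-7 family gene. Blue marks genes whose 5′ strand is in no other hairpin, orange those with a copy, and open points genes without a row. Genes with 0 shared windows lie at 4033 CPM or above. Among the genes with shared windows Mirlet7f-2 lies at 4015 CPM and the others at 173 CPM or below.

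Many let-7 genes lie beside other microRNA genes, and neighbouring hairpins had very different levels. For the genes with a copy these levels leave out multimapping reads, as above. On chromosome 13, Mirlet7d exceeded its neighbours Mirlet7a-1 (ENSMUSG00000065421.2, 48538179 to 48538272), 2064 bases away, by 72.1 ± 6.56 times and Mirlet7f-1, 1714 bases away, by 85.8 ± 2.67 times. On chromosome 15, Mirlet7b exceeded Mirlet7c-2 (ENSMUSG00000065608.1, 85706603 to 85706697), 621 bases away, by 35.4 ± 3.40 times. The pair on chromosome X, 785 bases apart, was close in level, with Mir98 at 1.44 times Mirlet7f-2 in pup 1 and 1.41 times in pup 2.

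The remaining clusters join a let-7 gene to a gene of the miR-99/100 and 1 of the miR-125 family. On chromosome 16 Mir99a, Mirlet7c-1 (ENSMUSG00000065557.2, 77599657 to 77599750) and Mir125b-2 are each intronic to Mir99ahg. Mir99a had 23166 CPM in pup 1 and 27866 in pup 2, which is 187 and 259 times Mirlet7c-1. Mir125b-2 had 278 ± 10.4 CPM. On chromosome 9 Mir100, Mirlet7a-2 (ENSMUSG00000092770.1, 41536716 to 41536811) and Mir125b-1 are each intronic to 3110039I08Rik and to Gm49317. Mir125b-1 also falls in an exon of some transcript of Gm28119. Mir100 had 3546 ± 345 CPM, which is 25.2 ± 3.37 times Mirlet7a-2, and Mir125b-1 had 258 ± 7.25 CPM. On chromosome 17 Mir99b had 9421 ± 544 CPM, 2.34 ± 0.153 times the reads at Mirlet7e, which in turn were 1.25-fold above Mir125a at 3215 ± 36.2 CPM in pup 1 and 1.26-fold in pup 2. Mir125b-1 and Mir125b-2 also share an identical 5′ strand, while Mir99a, Mir99b, Mir100 and Mir125a have no such copy. In these 3 clusters, the genes with a copy stood at 278 CPM or below, and those without one at 3215 CPM or above. In the cluster on chromosome X, Mirlet7f-2 has a copy and stood at 4015 CPM.

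**Figure D3:**
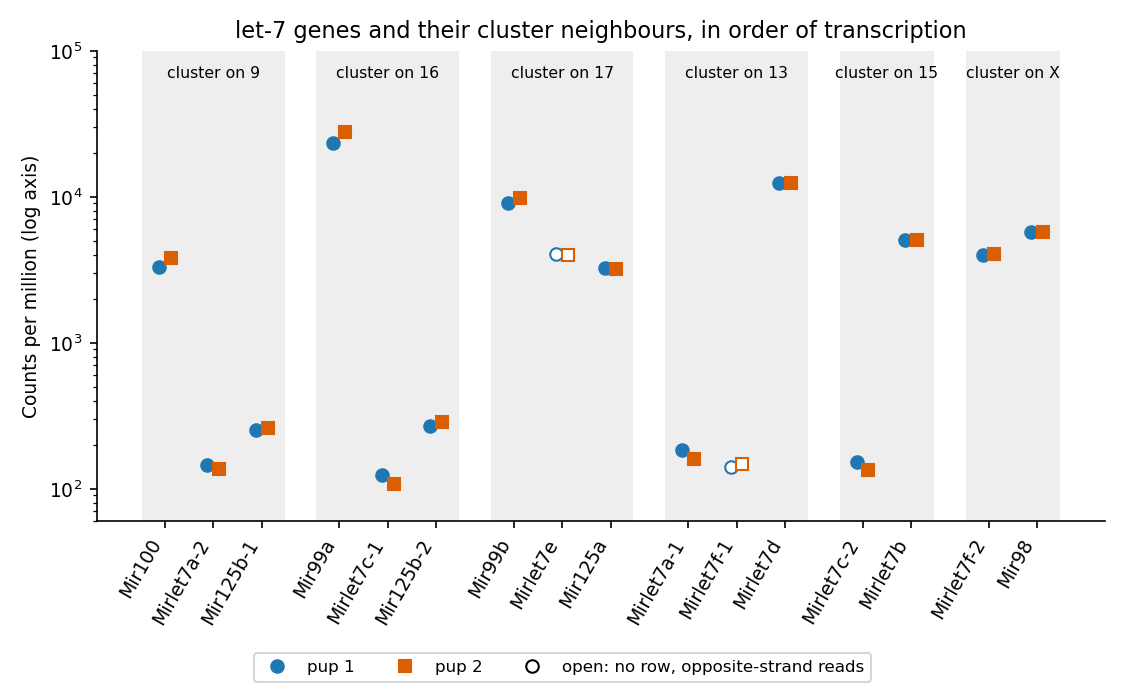
Levels in CPM (log axis) of let-7 genes and the microRNAs of the same genomic cluster, ordered along the direction of transcription within each grey block, with a circle for pup 1 and a square for pup 2. Open symbols are genes without a row. Mir98 and Mirlet7f-2 differ by 1.44-fold and 1.41-fold, whereas Mir99a exceeds Mirlet7c-1 by 187 and 259 times.

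The hairpins also differ in the loop that Lin28 proteins are known to bind, through GGAG and, for the cold shock domain, motifs such as those with UGAU. The stretch between both mature arms was searched for exactly these letters on the RNA strand only, and matches were set in capitals. Other forms of the cold shock domain's motif were not searched, so a loop without UGAU is not shown to lack such a site. Loops of 11 family genes were searched, Mirlet7e and Mirlet7f-1 included, and 5 of them show the kinds found:
Mirlet7g: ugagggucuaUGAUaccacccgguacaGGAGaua
Mirlet7i: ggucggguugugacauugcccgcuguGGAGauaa
Mirlet7d: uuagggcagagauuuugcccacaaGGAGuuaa
Mirlet7b: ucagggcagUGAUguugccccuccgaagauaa
Mirlet7c-2: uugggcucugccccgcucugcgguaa

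GGAG was found in 9 of the 11 loops, all but those of Mirlet7b and Mirlet7c-2, and ended 3 or 4 bases before the 3′ arm. Of 633 other hairpins with 2 listed arms, 6.95% held GGAG in that stretch, and of the 42 with a loop of 23 to 34 bases, the range of these 11, 11.9% did. UGAU was found in 3 of the 11, Mirlet7g, Mirlet7f-1 and Mirlet7b, against 5.69% of the 633 and 7.14% of the 42. Mirlet7g and Mirlet7f-1 held both. Loops with GGAG belonged to genes of every level, from Mirlet7g to Mirlet7c-1, and those without it to Mirlet7b at 5062 ± 2.87 and Mirlet7c-2 at 144 ± 13.7 CPM. For the genes with an identical 5′ copy, Mirlet7c-1 and Mirlet7c-2 among them, these levels leave out reads that match several places. A relation of the motif to the abundance of the mature strands thus cannot be read from them. A match is a description of letters, and binding was not measured.

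Between the pups the log2 ratios of the 10 genes, pup 2 over pup 1, lay between -0.22 and 0.14. Each gene was tested with an exact two-sided binomial test of its 2 counts, scaled by edgeR's TMM library sizes, with Benjamini-Hochberg adjustment over the 324 genes whose mean count was 10 or more. All 10 genes passed that filter. Each side is 1 library, so what is compared is the reads of these 2 libraries. By it 33.6% of all tested genes were called, 12.7% as higher and 21.0% as lower in pup 2. Among the 10 genes 1 was higher in pup 2, 5 were lower and 4 were not called. Deep counts make small ratios pass: 78.4% of all genes whose mean count was 10000 or more were called, and of the 6 let-7 genes among them 3. The members' median log2 ratio of pup 2 over pup 1 was -0.06, against -0.04 over all tested genes.

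Mirlet7i was the member called as higher, its log2 ratio being 0.14 (95% counting interval 0.14 to 0.15, exact binomial test, adjusted p = 2.66e-198). Mirlet7g was lower, at -0.08 (-0.09 to -0.07, exact binomial test, adjusted p = 4.70e-87). Both genes thus moved in opposite directions, which is the fall of their ratio from 1.44 to 1.23. Among the low genes, Mirlet7a-1 at -0.22 (exact binomial adjusted p = 0.0122), Mirlet7c-2 at -0.22 (0.0224) and Mirlet7c-1 at -0.22 (0.0398) were lower in pup 2. The call of Mirlet7c-1 was lost with no count filter, and with library totals, DESeq2 size factors or TMM over the genes past the count filter (exact binomial adjusted p from 0.0667 to 0.0834), and that of Mirlet7c-2 with that TMM alone among the binomial settings (0.0504). Mirlet7a-2 was at -0.10 (-0.26 to 0.06) and was not called.

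Mirlet7d was called as lower at -0.03 (-0.05 to -0.01, exact binomial adjusted p = 0.00232), a call that was lost with library totals (0.521), DESeq2 size factors (0.197) and TMM over the genes past the count filter (0.649), where its ratio was -0.01 to -0.02. Mir98 at -0.02, Mirlet7b at -0.02 and Mirlet7f-2 at 0.01 were not called, with counting intervals within -0.05 to 0.04. Over the 7 settings of the binomial test, 3 to 6 genes were called, and Mirlet7g, Mirlet7i and Mirlet7a-1 were called in each. These settings include the main one and a prior count of 5, which enters the log2 ratio only and so cannot change a call. When the spread between the pups (a biological coefficient of variation of 9.29%) entered edgeR's exact test, 0 of the 10 genes were called (adjusted p = 1 for each) and 0 had an unadjusted p under 0.05. Of all tested genes 0.309% were called. That spread was estimated from the same 2 libraries, so differences between them are themselves counted as spread. The edgeR test therefore cannot decide whether the genes differ. The endothelial marker and the sum of the erythroid markers also differed between the pups, as given above. Within the erythroid list, Mir451a was at 208 CPM in pup 1 and 53.6 in pup 2. Mir144 went the other way, with 32.2 CPM in pup 1 and 42.9 in pup 2. The part of these markers in the let-7 ratios was not tested.

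**Figure D4:**
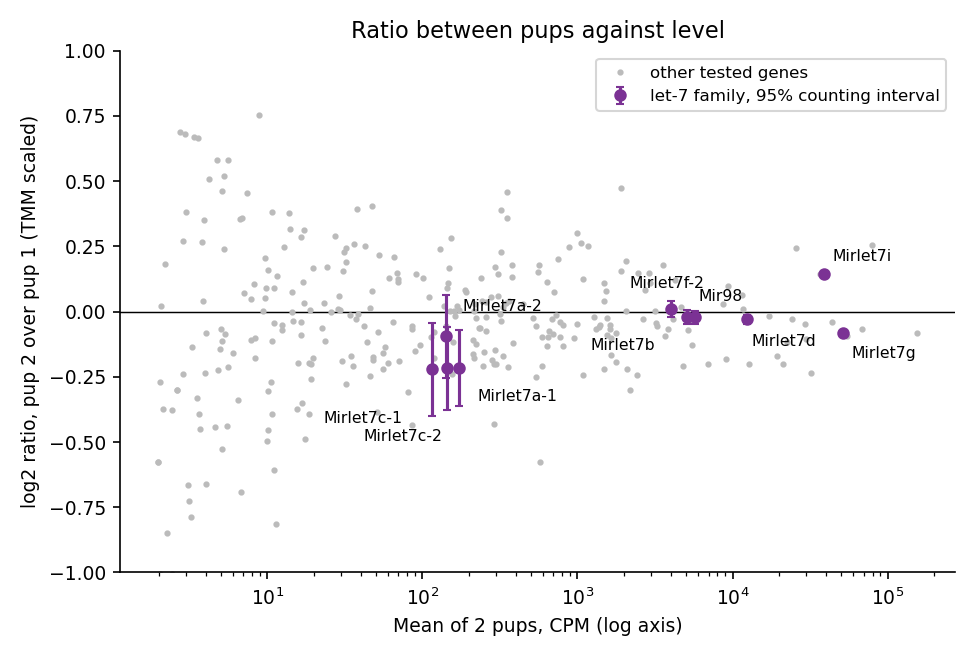
Log2 ratio of pup 2 over pup 1 after TMM scaling against the mean level in CPM (log axis), with 1 grey point per other tested gene and the let-7 genes in purple with their 95% counting interval. 8 other genes lie beyond the axis limits of 1 and -1. Mirlet7i lies at 0.14, Mirlet7g at -0.08, and all let-7 genes lie between -0.22 and 0.14.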

How the data were processed

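Small RNA of kidneys from 2 newborn pups was sequenced, with a stated upper size limit of 30 without a unit. The authors deposited raw read counts per gene, 1 table per pup, aligned to mm10 and counted over annotation M4, per the notes deposited with the tables. For the aligner, the sources used here give no name or setting. Each table has 3 count columns without a header. The gene-strand column was identified from the values: it has fewer unassigned reads than the opposite-strand column. Each column with its leading rows sums to 10014956 reads in pup 1 and 6700198 in pup 2, so these sums do not tell the columns apart. Leading rows stayed out of totals and tests: multimapping reads (30.3% and 31.0%), unmapped reads (8.52% and 8.69%) and reads on no listed gene's strand (2.91% and 2.92%). A count of 0 allows up to 3 counts, or 0.514 and 0.780 CPM, for a gene without a copy.

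Identifiers were matched without version to GENCODE M21 on the same assembly (1894 of 1973). Mature strands and loops came from RefSeq, and the loop of 1 family gene is not reported here. CPM use the total of all named genes. The members and gene lists were chosen with earlier results of these data known. The text names all members, both let-7 genes without a row, their cluster neighbours and the genes next in level to the 4 highest members. It also names other carriers of the seed, some markers of cell types, and Mir10a in one alternative. Mir7j was added after its value was seen. edgeR 4.0.16 gave TMM factors over all named genes, and scipy 1.17.1 the binomial tests and intervals. Log2 ratios use a prior count of 0.5. edgeR's quasi-likelihood test needs replicates on both sides and was not used. Simulated data served to check the binomial test, and in them counting error was the only noise. Alternatives were other scalings, count filters, strands, totals and the edgeR exact test, with DESeq2 1.42.0 for size factors.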

Additional observations from a re-analysis of the deposited data

Results flagged for a closer look

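Reads fell outside the counts used here at both let-7 genes without a row, above the limit of 3 counts that a count of 0 allows. At Mirlet7e, 23650 reads in pup 1 and 15431 in pup 2 lay opposite to Gm25927. At Mirlet7f-1, 826 reads in pup 1 and 566 in pup 2 lay opposite to Gm24111. Either overlapping gene had 0 counts on its own strand. The pups form 1 group of 2, and no sample was tested for lying apart.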

How the results depend on the processing

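The family's share of 11.8% ± 0.155 was 11.6% with reads on either strand, 12.2% with the opposite-strand reads given to Mirlet7e and Mirlet7f-1, 13.997% with Mir10a out of the total, 7.73% with multimapping reads added to the total, and 11.4% with the members that have an identical 5′ copy left out. These shifts follow from what each alternative adds or removes. A single pup gave 11.7% or 11.9%. The number of members at 1000 CPM or more was 6 in each alternative. Of the 10 members, 6 were called between the pups (33.6% of all genes), 4 with library totals (29.9%) or DESeq2 size factors (29.6%), 5 with no count filter (13.6%), 6 with a mean count of at least 100 (49.3%), 3 with TMM over genes past the count filter (30.2%), an alternative chosen after seeing the data, and 0 with the edgeR exact test (0.309%). The last TMM called 48 genes as higher and 50 as lower over all genes, against 41 and 68. Over all genes the edgeR exact test called 1, with 14 at an unadjusted p under 0.05. The cause of these changes was not tested. The ratio of Mirlet7b, which was not called, turned to 0.0012 with library totals and 0.0031 with TMM over the filtered genes, and that of Mir98 to 0.0012 with the latter. Depth limits the 4 low members most: the counting interval of Mirlet7c-1, from 721 and 414 counts, ran from -0.40 to -0.04. No paired analysis was possible because the pups form 1 group.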

Other observations

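The cluster neighbours of the let-7 genes differed between the pups in 4 of 6 cases by the binomial test, which is exact and was adjusted by Benjamini-Hochberg over all tested genes. Of all tested genes 33.6% were called, and of those with a mean count of 10000 or more 78.4%. The 4 called neighbours all had such counts and the 2 others had mean counts of 1242 and 1336, and nothing particular to the neighbours is read from this count. Mir99a (log2 ratio of pup 2 over pup 1 of 0.25), Mir100 (0.18, adjusted p = 6.0e-28) and Mir99b (0.10, adjusted p = 3.51e-22), all of the miR-99/100 family, were higher in pup 2. Mir125a was lower, at -0.04 (exact binomial adjusted p = 0.0278), and Mir125b-1 (0.04) and Mir125b-2 (0.06) were not called. The let-7 genes of the same clusters stood at -0.22 for Mirlet7c-1, -0.10 for Mirlet7a-2 and -0.04 for the reads at Mirlet7e. For edgeR's exact test the spread was estimated from the same 2 libraries, so differences between them are themselves counted as spread. That test therefore cannot decide whether the neighbours differ. With the spread between the pups in edgeR's exact test, 0 of the 6 neighbours were called, each with an adjusted p of 1 and an unadjusted p of 0.196 or more.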
